A study of Homo sapiens with 6 samples.

Results

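The FOXO factors FOXO1, FOXO3 and FOXO4 and 7 genes known as their targets, TSC22D3, DEPP1, CCNG2, KLHL24, BCL6, SESN3 and TRIB1, were examined in HCT116 cells, an epithelial line from a human colorectal carcinoma. These 10 genes, of 19775 measured, were chosen with the comparison of CDK4/6 siRNA with control siRNA already known, so their differences in that comparison are a description and carry no test. They were found by gene symbol among 54675 probe sets, of which 39 name one of them, and the brightest of a gene's probe sets, by its 6-array mean, stands for it. The CDK4/6 siRNA group (3 arrays) received a siRNA pool targeting CDK4 and one siRNA targeting CDK6, each at 30 nM. The control siRNA group (3 arrays) received 30 nM each of a non-targeting pool and a negative control siRNA. All cells were parental HCT116 grown in medium with 12.5 mM glucose and 10% serum, were transfected with the same lipid reagent and were analysed 96 h after transfection. Levels are log2 RMA values, differences are CDK4/6 siRNA minus control siRNA, and SE is the moderated standard error of limma.

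FOXO proteins are forkhead transcription factors that bind DNA in the nucleus when insulin and growth factor signalling is low. When PI3K is active, AKT and SGK kinases phosphorylate them, 14-3-3 proteins hold them in the cytoplasm and their targets lose an activator. Targets in many cell types include brakes on the cell cycle, pro-apoptotic genes, antioxidant enzymes and components of insulin signalling itself. mRNA levels do not show the phosphorylation or location of the FOXO proteins, which were not measured.

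The RefSeq promoters of the genes (assembly GRCh38.p14, 250 bases before to 50 bases after each start site) were searched on both strands for the forkhead core TGTTTAC, whose reverse complement is GTAAACA. Promoters were matched for 9 of the 10 genes, all but TRIB1. Of these 9 genes, 3 held the core in at least 1 promoter, against 3.76% of the 15384 measured genes with a promoter. They were FOXO4, at -0.25, and TSC22D3 and DEPP1, whose differences were the 2 largest on the probe sets standing for the 10 genes. A link between the core and the size of the differences was not tested. The longer forkhead element TTGTTTAC, which contains the core, was in none of the 9 and in 1.14% of measured genes. Several genes have more than 1 annotated start site, and TSC22D3 held the core in 1 of its 4 promoters. The promoters with a match are given 5′ to 3′ on the gene's strand, with the core or its reverse complement in capitals. The CCNG2 promoter is given beside them because it was the 1 of 9 with an E-box (CACGTG), the letters bound by MYC and MAX, which 10.9% of measured genes held and which is in capitals there.
TSC22D3, chrX:107717013-107717312, minus strand: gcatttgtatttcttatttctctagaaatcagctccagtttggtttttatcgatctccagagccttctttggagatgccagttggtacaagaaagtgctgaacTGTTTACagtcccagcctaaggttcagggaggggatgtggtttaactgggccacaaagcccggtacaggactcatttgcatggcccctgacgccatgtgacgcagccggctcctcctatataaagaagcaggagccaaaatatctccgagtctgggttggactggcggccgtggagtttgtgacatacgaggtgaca
DEPP1, chr10:44978760-44979059, minus strand: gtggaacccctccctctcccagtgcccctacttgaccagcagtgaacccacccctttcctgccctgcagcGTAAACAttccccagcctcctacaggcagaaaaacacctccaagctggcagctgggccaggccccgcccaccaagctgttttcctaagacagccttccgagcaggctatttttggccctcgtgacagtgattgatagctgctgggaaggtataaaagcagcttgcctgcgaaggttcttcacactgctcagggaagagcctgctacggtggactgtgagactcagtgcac
FOXO4, chrX:71095601-71095900, plus strand: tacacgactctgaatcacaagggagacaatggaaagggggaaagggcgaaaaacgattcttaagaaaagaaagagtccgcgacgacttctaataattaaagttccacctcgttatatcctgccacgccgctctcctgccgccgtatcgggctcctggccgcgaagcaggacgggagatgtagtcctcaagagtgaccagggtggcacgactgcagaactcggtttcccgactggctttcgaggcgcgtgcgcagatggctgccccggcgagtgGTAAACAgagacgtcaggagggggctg
CCNG2, chr4:77156957-77157256, plus strand: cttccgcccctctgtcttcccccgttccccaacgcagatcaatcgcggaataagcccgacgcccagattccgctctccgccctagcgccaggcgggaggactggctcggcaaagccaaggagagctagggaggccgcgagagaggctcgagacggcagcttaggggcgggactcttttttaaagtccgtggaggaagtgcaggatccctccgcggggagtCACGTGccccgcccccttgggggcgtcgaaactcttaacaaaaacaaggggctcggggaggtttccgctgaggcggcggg
Counted from the start site, the match began at position -147 in TSC22D3 and at position -180 in DEPP1. In FOXO4 it began at base 24 of the transcript. A match says only that these letters are present, and binding was not measured.

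Across the series, array medians lay between 5.36 and 5.39, and pairs of arrays correlated at 0.998 inside a group and at 0.991 to 0.994 across groups. The labels call the arrays biological replicates without saying whether cultures were started separately, so p-values rest on array-to-array spread alone, which may be technical. CDK6 averaged 8.84 ± 0.043 in CDK4/6 siRNA cells and 10.39 ± 0.041 in control cells, and CDK4 averaged 9.52 ± 0.12 and 10.21 ± 0.12 (SD, n = 3 each). All 6 epithelial markers were measured, and their mean level ran from 10.05 to 10.17 in CDK4/6 siRNA arrays and from 9.86 to 9.93 in control arrays. Of them, KRT8, KRT18 and KRT20 rose and CDH1 fell by 0.54, a call lost when its 2 probe sets were averaged (-0.27, limma adjusted p = 0.145). The mean of the 4 measured leukocyte markers ran from 4.20 to 4.39 in CDK4/6 siRNA arrays and from 4.25 to 4.33 in control arrays, and that of the 3 endothelial markers from 5.23 to 5.34 and from 5.18 to 5.38. The mean of the 5 fibroblast markers was lower without overlap, from 5.26 to 5.38 in CDK4/6 siRNA arrays and from 5.39 to 5.43 in control arrays. Of them COL1A1 fell by 0.49 (limma adjusted p = 0.000311), or by 0.25 averaged over its probe sets, and the other 4 did not pass. The part of these markers in the results below was not tested.

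Across all genes limma called 26.8% changed at an adjusted p under 0.05, 14% higher and 12.9% lower. Of the 10 FOXO factors and targets, 7 were called lower and 1 higher, a count from which nothing is read because the genes were chosen with this comparison known. Their groups did not overlap in the same numbers, 7 lower and 1 higher, against 20.3% lower and 20.6% higher without overlap, 40.9% in all, over all genes. The median difference was -0.54 over the 10 genes and -0.0011 over all genes. The hybridisation spike-ins were lower in CDK4/6 siRNA arrays, at a mean of 10.15 against 10.25 in control arrays, and scaling to them moved every gene up by 0.11. The share of called genes that were higher was then 78.2%, against 52.0% as deposited. With that scaling each of the 10 genes kept its sign, and the groups again did not overlap in 7 lower and 1 higher. In bulk RNA, fewer cells of a type and less RNA per cell cannot be told apart.

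FOXO3, the factor best known for inducing cell cycle brakes and pro-apoptotic genes, read 10.79, 10.82 and 10.75 in CDK4/6 siRNA replicates 1 to 3, against 11.09, 11.19 and 11.28 in control replicates 1 to 3. Every CDK4/6 siRNA array lay below every control array, with a gap of 0.28. The difference was -0.40 (SE 0.063), or 75.8% of the control level. FOXO4, an X-linked factor of the same family, read 5.34, 5.43 and 5.51 in CDK4/6 siRNA cells, against 5.62, 5.66 and 5.74 in control cells. Its groups did not overlap either, but the gap was 0.10 and the difference -0.25 (SE 0.065), on a single probe set of low signal.

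FOXO1, which controls glucose production in liver, read 7.44, 7.34 and 7.48 in CDK4/6 siRNA cells, against 7.45, 7.66 and 7.62 in control cells. The groups overlapped, since control replicate 1 lay below CDK4/6 siRNA replicate 3, and the difference was -0.16 (SE 0.072). After spike-in scaling it was -0.049, and FOXO4 was then at -0.14. Of the 3 FOXO factors FOXO3 therefore had the largest difference. FOXO4 and FOXO1 lay within the sum of their standard errors of each other and were not ordered.

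TSC22D3, a leucine zipper protein also known as GILZ that glucocorticoids and FOXO3 induce, had the largest difference of the 10 genes on the brightest probe sets. It read 7.52, 7.55 and 7.54 in CDK4/6 siRNA replicates 1 to 3, against 8.78, 8.92 and 8.92 in control replicates 1 to 3. The lowest control array lay 1.23 above the highest CDK4/6 siRNA array, and the SD was 0.015 in CDK4/6 siRNA cells and 0.081 in control cells. The difference was -1.34 (SE 0.059), which leaves 39.5% of the control level. DEPP1, a small protein first described as induced by progesterone in endometrium, read 6.02, 6.09 and 5.94 in CDK4/6 siRNA cells, against 7.17, 7.23 and 7.32 in control cells. Its groups were 1.08 apart, and the difference was -1.23 (SE 0.065), or 42.8% of the control level.

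CCNG2, an unconventional cyclin that accumulates in cells leaving the cycle, read 10.73, 11.00 and 10.86 in CDK4/6 siRNA cells, against 11.54, 11.58 and 11.71 in control cells. The groups did not overlap, and the difference was -0.75 (SE 0.080), or 59.6% of the control level. KLHL24, an adaptor that brings substrates to the CUL3 ubiquitin ligase, read 8.14, 7.68 and 7.76 in CDK4/6 siRNA cells, against 8.53, 8.70 and 8.84 in control cells. Its difference of -0.83 (SE 0.12) had the widest error of the 10 genes. CDK4/6 siRNA replicate 1 lay well above the other two, the groups did not overlap, and without that array the difference was -0.97. BCL6, a transcriptional repressor known from germinal centre B cells, read 9.35, 9.28 and 9.22 in CDK4/6 siRNA cells, against 9.86, 9.95 and 10.07 in control cells. The groups did not overlap, and the difference was -0.67 (SE 0.070).

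The 2 remaining targets departed from the others. SESN3, a sestrin that restrains mTORC1 under stress, read 7.18, 6.86 and 6.96 in CDK4/6 siRNA cells, against 7.08, 7.09 and 7.47 in control cells. The groups overlapped, and the difference of -0.21 (SE 0.12) rested largely on control replicate 3, since without that array it was -0.083. TRIB1, a pseudokinase that brings the ubiquitin ligase COP1 to C/EBP proteins, was the only gene of the 10 that was higher. It read 12.84, 12.84 and 12.75 in CDK4/6 siRNA cells, against 12.57, 12.59 and 12.57 in control cells, a difference of 0.24 (SE 0.054), or 1.18-fold, with no overlap.

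Ordered by size, TSC22D3 and DEPP1 lay together at the low end, 0.12 apart, which is within the sum of their standard errors. KLHL24, CCNG2 and BCL6 followed, each within the sum of the standard errors of its neighbour, and DEPP1 and KLHL24 were 0.39 apart, more than that sum. FOXO3 stood 0.27 above BCL6, also more than the sum. FOXO4, SESN3 and FOXO1 could not be ordered. The order holds only for the probe sets that stand for the genes. With each gene's probe sets averaged, DEPP1 was at -0.70, KLHL24 at -0.68, CCNG2 at -0.57 and TSC22D3 at -0.55. FOXO3 was then at -0.43 and BCL6 at -0.35.

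**Figure D1:**
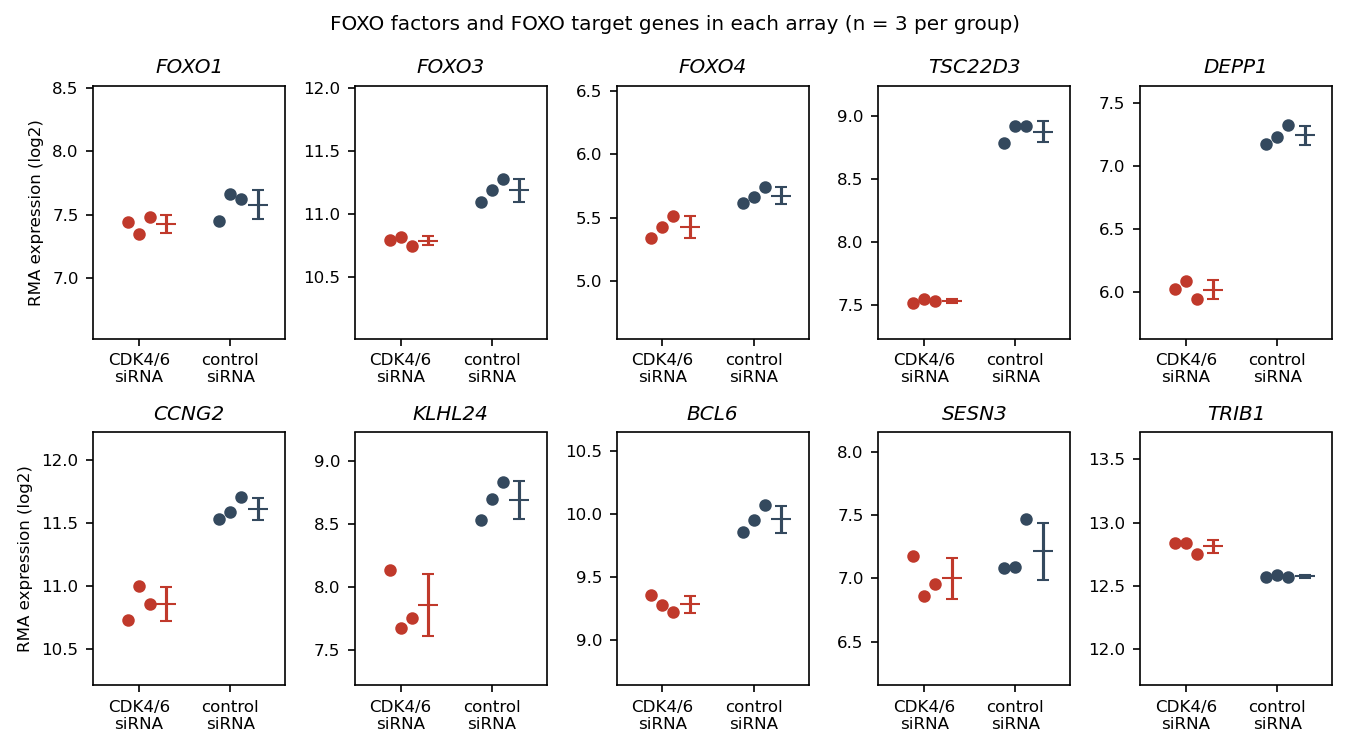
RMA expression on a log2 scale for each of the 10 genes, with 1 point per array, CDK4/6 siRNA (left, red) and control siRNA (right, dark), and a mean with SD beside each group (n = 3). Each panel spans the same number of log2 units; TSC22D3 and DEPP1 show the widest separation, at -1.34 and -1.23, FOXO1 and SESN3 overlap, and TRIB1 is higher with CDK4/6 siRNA.

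Of the 39 probe sets, 21 were lower without overlap, 1 was higher without overlap and 17 overlapped. KLHL24 was the most even, with all 5 probe sets lower without overlap, from -1.01 to -0.23. CCNG2 had 4 of 5 lower, from -0.88 to -0.54, and its dimmest, at a control mean of 5.64, gave 0.086. FOXO3 had 5 of 7 lower, including the next 2 in brightness at -0.42 and -0.60. Of the 7 FOXO3 probe sets, 3 also name FOXO3B, a near-identical copy, and gave -0.42, -0.27 and 0.084, so their signal cannot be assigned to 1 of the 2 genes.

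Other genes rested on fewer probe sets. For TSC22D3 the value above came from the brightest of 3, while the next gave -0.33 without overlap at a control mean of 5.71, and the dimmest, the only one without a suffix for shared probes, gave 0.011 at a control mean of 4.39. The other DEPP1 probe set, at a 6-array mean of 6.51 against 6.63, gave -0.18 with overlapping groups. BCL6 gave -0.39 on its second probe set and 0.019 on its dimmest, and 6 of 7 SESN3 probe sets and all 3 of FOXO1 overlapped. Averaging a gene's probe sets moved TSC22D3 to -0.55, DEPP1 to -0.70, BCL6 to -0.35 and TRIB1 to 0.074. TRIB1's 2 other probe sets were dim, at control means of 4.32 and 3.65, and gave 0.074 and -0.088.

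**Figure D2:**
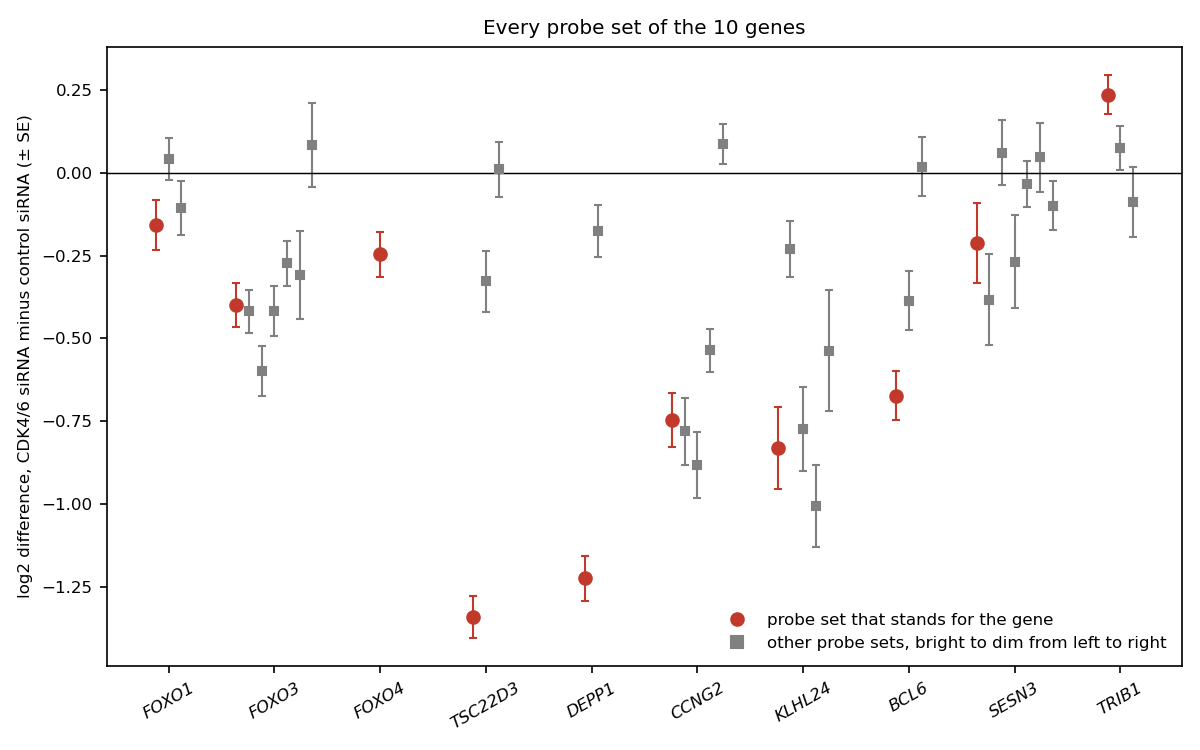
Log2 difference between CDK4/6 siRNA and control siRNA with its SE (n = 3 arrays per group) for all 39 probe sets, grouped by gene and ordered from bright to dim within a gene. The red circle stands for the gene; probe sets of KLHL24 and most of those of CCNG2 and FOXO3 lie below 0, while those of TSC22D3 run from -1.34 to 0.011.

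Close relatives of the 10 genes were described next. FOXO6, the fourth member of the factor family, was measured by 1 probe set, whose name carries a suffix for shared probes. It read 7.93, 7.71 and 7.70 in CDK4/6 siRNA cells, against 8.27, 8.31 and 8.31 in control cells. That signal fell by 0.51 (SE 0.071, limma adjusted p = 0.000875) and may not come from FOXO6 alone. TRIB2, a pseudokinase like TRIB1, fell by 0.31 (adjusted p = 0.00629), whereas TRIB3 gave 0.18 (adjusted p = 0.055), which passed the threshold after spike-in scaling (0.28). TSC22D2 was lower on its bright probe set, by 0.43 (adjusted p = 0.000676), but a dim one gave 0.27 and the mean of its 6 probe sets 0.011. TSC22D4 gave -0.18, which passed without CDK4/6 siRNA replicate 3 (-0.24). TSC22D1 gave 0.010, though a dim second probe set gave 0.34. CCNG1 gave -0.12, SESN1 0.0072 and SESN2 0.028. BCL6B gave -0.17, and -0.29 without CDK4/6 siRNA replicate 2, which passed the threshold. In all 3 of 10 relatives fell and 0 rose, so 30% were called against 26.8% of all genes, and their median difference was -0.15 against -0.0011.

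Of 12 measured partners of the proteins the genes encode, 2 fell and 1 rose, or 25% called against 26.8% of all genes, with a median of -0.11. CEBPB, a C/EBP transcription factor, fell by 0.47 (limma adjusted p = 0.000424) and HDAC3, a deacetylase of BCL6-type corepressor complexes, by 0.36 (adjusted p = 0.0014). SEH1L, a subunit of the complex that sestrins bind, rose by 0.36 (adjusted p = 0.00178), while its second probe set gave -0.0017.

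TSC22D3 is also a standard glucocorticoid response gene, so other genes of that response were set beside it. The receptor NR3C1 fell by 0.35 (limma adjusted p = 0.00787), except on its dim plain-name probe set (0.014). The phosphatase DUSP1 fell by 0.68 (adjusted p = 0.000806), though its 2 dimmer probe sets gave -0.073 and -0.069 and their average with it -0.27. KLF9 fell by 0.66 (adjusted p = 0.00145), or by 0.35 averaged over its probe sets. SGK1 rose by 0.55 (adjusted p = 0.00365), as did FKBP5 by 0.25 (adjusted p = 0.0133). In all 3 of 7 measured genes were lower and 2 higher, or 71.4% called against 26.8% of all genes, with a median of -0.068.

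Genes whose 6 array values lay nearest to those of TSC22D3, each minus its control mean, were the glycolytic enzyme ENO2 (root mean square distance 0.043 log2 units), the Hedgehog receptor PTCH1 (0.053), the complement regulator CD55 (0.065), the repressor ZBTB18 (0.075) and the CDK inhibitor CDKN1C (0.082). Their differences ran from -1.43 to -1.29. The genes were chosen by closeness to TSC22D3 on its brightest probe set, so differences near its own -1.34 follow from the choice.

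Beyond the 7 target genes, 51 other genes described as FOXO targets were listed with earlier results of these data known, and 47 of them were measured. Of these 17 fell and 2 rose, which is 40.4% changed against 26.8% of all genes, with a median of -0.084 against -0.0011. After spike-in scaling 11 fell and 5 rose, and the median turned to 0.024, against 0.11 over all genes. Of the called targets 31.2% were then higher, against 78.2% of called genes over all genes. Without CDK4/6 siRNA replicate 1, 12 fell and 0 rose, against 52.1% of called genes higher over all genes. The split by role was uneven, as the plot of other FOXO targets shows.

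Brakes on the cell cycle held the largest share of called genes among the 6 role groups, with 5 of 7 lower and 0 higher, or 71.4% against 26.8% of all genes, and a median of -0.60. CDKN1B, the CDK inhibitor p27, read 9.50, 9.59 and 9.58 in CDK4/6 siRNA cells, against 10.31, 10.39 and 10.61 in control cells. It fell by 0.88 (SE 0.082, limma adjusted p = 0.000147). MXI1, which competes with MYC for MAX, fell by 0.83 (SE 0.063, adjusted p = 8.27e-05). GADD45A, a stress-induced growth arrest gene, fell by 0.60 (adjusted p = 0.000382), and the INK4 inhibitor CDKN2B by 0.61 (adjusted p = 0.000439), with its dim second probe set at 0.073 and their average at -0.27.

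Insulin feedback and metabolism genes had 6 of 13 lower and 0 higher, or 46.2% called against 26.8% of all genes. Their median was -0.16. PDK4, a kinase that shuts pyruvate dehydrogenase and a classical FOXO target in muscle and liver, read 5.68, 5.75 and 5.83 in CDK4/6 siRNA cells, against 7.05, 7.06 and 7.38 in control cells. It fell by 1.41 (SE 0.094, limma adjusted p = 4.94e-05), further than TSC22D3, and its 2 dim probe sets gave -0.30 and -0.20, for an average of -0.64. IRS2, the insulin receptor substrate that FOXO proteins raise in a feedback loop, fell by 0.66 (adjusted p = 0.000382). RICTOR, the defining subunit of mTORC2, fell by 0.51 (adjusted p = 0.000272), and CITED2, a coactivator regulator, by 0.54 (adjusted p = 0.000618).

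Autophagy and proteolysis genes were lower in 4 of 9, or 44.4% called against 26.8% of all genes, with a median of -0.15. FBXO32, the atrophy ubiquitin ligase, gave -0.30, GABARAPL1 -0.27, ATG12 -0.19 and PINK1 -0.18, with limma adjusted p between 0.0283 and 0.0383. Each of these calls was lost in 4 or 5 of the 6 fits that left out 1 array. FBXO32 and ATG12 kept it only without CDK4/6 siRNA replicate 2, with adjusted p of 0.0578 to 0.092 and 0.0552 to 0.0962 in the other fits. PINK1 kept it only without control replicate 1 (0.073 to 0.133 otherwise), and GABARAPL1 without CDK4/6 siRNA replicate 2 or control replicate 1 (0.0794 to 0.117 otherwise). With the replicate number as a block the calls of ATG12 (adjusted p = 0.0658) and PINK1 (adjusted p = 0.0832) were lost too, and averaging probe sets ended those of FBXO32 (-0.093) and ATG12 (-0.012). None of the 4 passed after spike-in scaling, where they gave -0.19, -0.17, -0.087 and -0.075. The dimmest ATG12 probe set rose by 0.42 (limma adjusted p = 0.00157 over probe sets), against the direction of the other two.

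Pro-apoptotic targets went both ways, with 1 of 6 lower and 2 higher, or 50% called against 26.8% of all genes. Their median was 0.049. BNIP3, which acts in mitophagy and is also a standard hypoxia gene, fell by 0.66 (limma adjusted p = 0.000161). The BH3-only gene BCL2L11 (BIM) rose by 0.25 (adjusted p = 0.0279) and PMAIP1 (NOXA) by 0.18 (adjusted p = 0.0366). The BCL2L11 call was lost without any 1 of the CDK4/6 siRNA replicates or control replicate 1 (0.18 to 0.26, adjusted p of 0.0516 to 0.081), and the mean of its 7 probe sets gave -0.015. The PMAIP1 call was lost without any 1 array but control replicate 3 (0.16 to 0.20, adjusted p of 0.057 to 0.104) and with the replicate number as a block (adjusted p = 0.0902).

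None of 7 oxidant defence genes passed limma's threshold on the probe set that stood for the gene, against 26.8% of all genes called. The same held at an unadjusted p under 0.05, and their median difference was 0.064. The second TXN2 probe set, at a control mean of 8.87, rose by 0.20 (limma adjusted p = 0.0449 over probe sets). That of CAT gave 0.17 and did not pass (limma adjusted p = 0.0805 over probe sets). Of 5 lymphocyte and vascular targets, whose median was 0.054, 1 passed, or 20% called against 26.8% of all genes. It was KLF2, at -0.26 (limma adjusted p = 0.00714), which did not pass after spike-in scaling (-0.15) or on its plain-name probe set (-0.068). BNIP3, MXI1 and CITED2 are also known hypoxia-inducible factor targets, and GADD45A is also a p53 target, so the lists do not separate FOXO from other regulators. The part of those regulators in the counts was not tested.

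**Figure D3:**
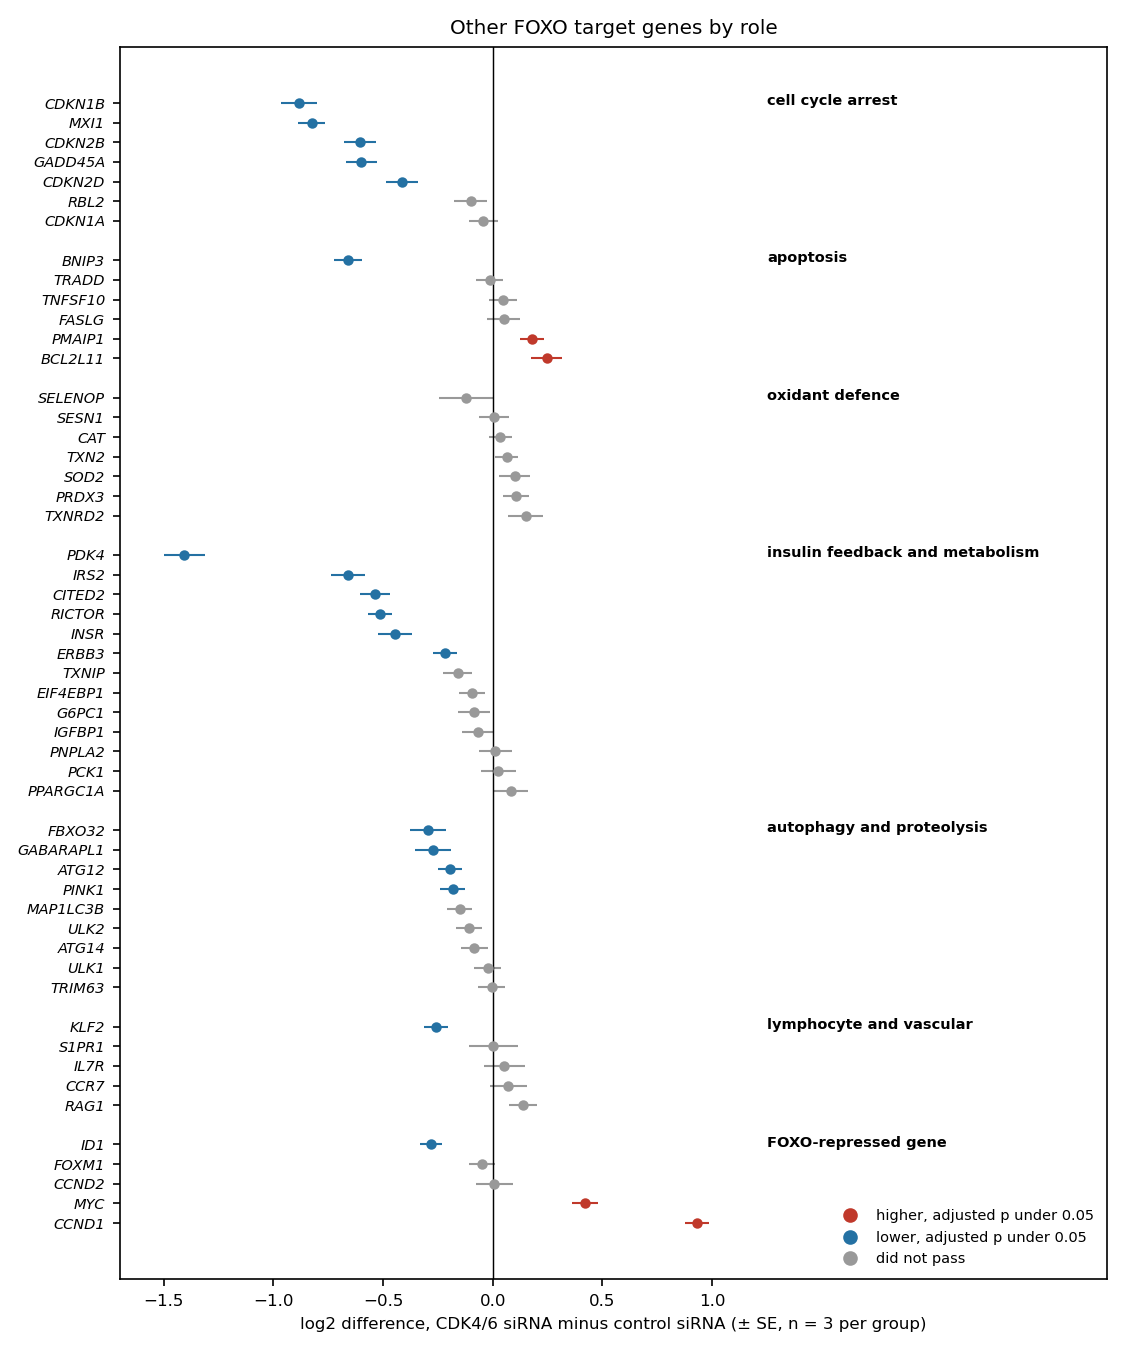
Log2 difference between CDK4/6 siRNA and control siRNA with its SE (n = 3 arrays per group) for the measured genes of 6 role groups of other FOXO targets and for genes FOXO proteins are reported to repress. Blue genes were lower and red genes higher at an adjusted p under 0.05; cell cycle brakes had 5 of 7 lower and oxidant defence genes 0 of 7.

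Genes that FOXO proteins are reported to repress, directly or through other factors, were mixed. CCND1, cyclin D1, read 11.51, 11.49 and 11.51 in CDK4/6 siRNA cells, against 10.63, 10.51 and 10.58 in control cells. It rose by 0.93 (SE 0.056, limma adjusted p = 3.64e-05). MYC, the growth regulator named in the series title, rose by 0.42 (adjusted p = 0.00101), and ID1, an inhibitor of basic helix-loop-helix factors, fell by 0.28 (adjusted p = 0.00367), a call lost after spike-in scaling (-0.17). CCND2 gave 0.0063 and FOXM1, a forkhead factor of the G2 programme, gave -0.048.

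The regulators of FOXO proteins moved in both directions. Of 43 measured, 10 rose and 9 fell, or 44.2% changed against 26.8% of all genes, with a median of 0.013. After spike-in scaling 15 rose and 3 fell, so 83.3% of the called regulators were higher, against 78.2% of called genes over all genes. Without control replicate 3, 6 rose and 6 fell, or 50% higher against 52.2% over all genes.

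In the PI3K and AKT arm 4 of 12 rose and 3 fell, or 58.3% called against 26.8% of all genes. The median was 0.062. SGK1, a kinase that inactivates FOXO3, rose by 0.55 (given above), and the AKT phosphatase PHLPP2 rose by 0.54 (limma adjusted p = 0.000585), or by 0.29 averaged over its probe sets. PHLPP1, of the same arm, fell by 0.30 (limma adjusted p = 0.0177). PIK3CB, a catalytic PI3K subunit, fell by 0.26 (adjusted p = 0.00639) and the adaptor IRS1 by 0.32 (adjusted p = 0.00953), neither call holding with the spike-in scaling (-0.15 and -0.21). The dimmest IRS1 probe set rose by 0.76 (adjusted p = 0.000365 over probe sets), and the mean of its 3 probe sets gave 0.029.

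Among other kinases 5 of 11 fell and 1 rose, or 54.5% called against 26.8% of all genes, with a median of -0.14. STK3, the MST2 kinase of the Hippo pathway, whose close relative STK4 phosphorylates FOXO proteins under oxidative stress, fell by 0.52 (limma adjusted p = 0.000988). STK4 itself gave 0.085 and did not pass (limma adjusted p = 0.33). DYRK1A, which phosphorylates FOXO1, fell by 0.39 (adjusted p = 0.000761), though its brightest plain-name probe set gave -0.0072 and the average of its probe sets -0.16. CDK1 fell by 0.26 (adjusted p = 0.023), a call lost with the spike-in scaling (-0.15) and without CDK4/6 siRNA replicate 1, control replicate 1 or control replicate 3 (-0.28 to -0.20). IKBKB, an IκB kinase, rose by 0.30 (adjusted p = 0.0175), or 0.27 without control replicate 3 (adjusted p = 0.0678).

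Of 8 genes for 14-3-3 proteins and nuclear export, 2 rose and 0 fell, or 25% called against 26.8% of all genes, with a median of 0.10. YWHAB rose by 0.26 (limma adjusted p = 0.00601) on its brightest of 3 probe sets, and the other two gave 0.34 and 0.26. YWHAH rose by 0.29 (adjusted p = 0.0208), a call lost without CDK4/6 siRNA replicate 1 or 3 or control replicate 1 or 3 (0.22 to 0.29, adjusted p of 0.0501 to 0.0766) and when its probe sets were averaged (0.033).

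Among enzymes of acetylation, methylation and ubiquitination 3 of 12 rose and 1 fell, or 33.3% called against 26.8% of all genes, with a median of -0.011. PRMT6, an arginine methyltransferase that modifies FOXO3 in muscle, read 7.36, 7.35 and 7.59 in CDK4/6 siRNA cells, against 6.60, 6.24 and 6.34 in control cells. It rose by 1.04 (SE 0.10, limma adjusted p = 0.000181), the largest change among the regulators. SKP2, the ubiquitin ligase subunit that targets FOXO1 and p27 for degradation, read 9.94, 10.05 and 10.06 in CDK4/6 siRNA cells, against 9.59, 9.51 and 9.31 in control cells, a rise of 0.54 (SE 0.081, adjusted p = 0.00123). A second SKP2 probe set gave -0.097 and did not pass, and the average of all 3 was 0.23. STUB1, the CHIP ubiquitin ligase, rose by 0.32 (adjusted p = 0.0029), and the acetyltransferase KAT2B fell by 0.38 (adjusted p = 0.0111).

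**Figure D4:**
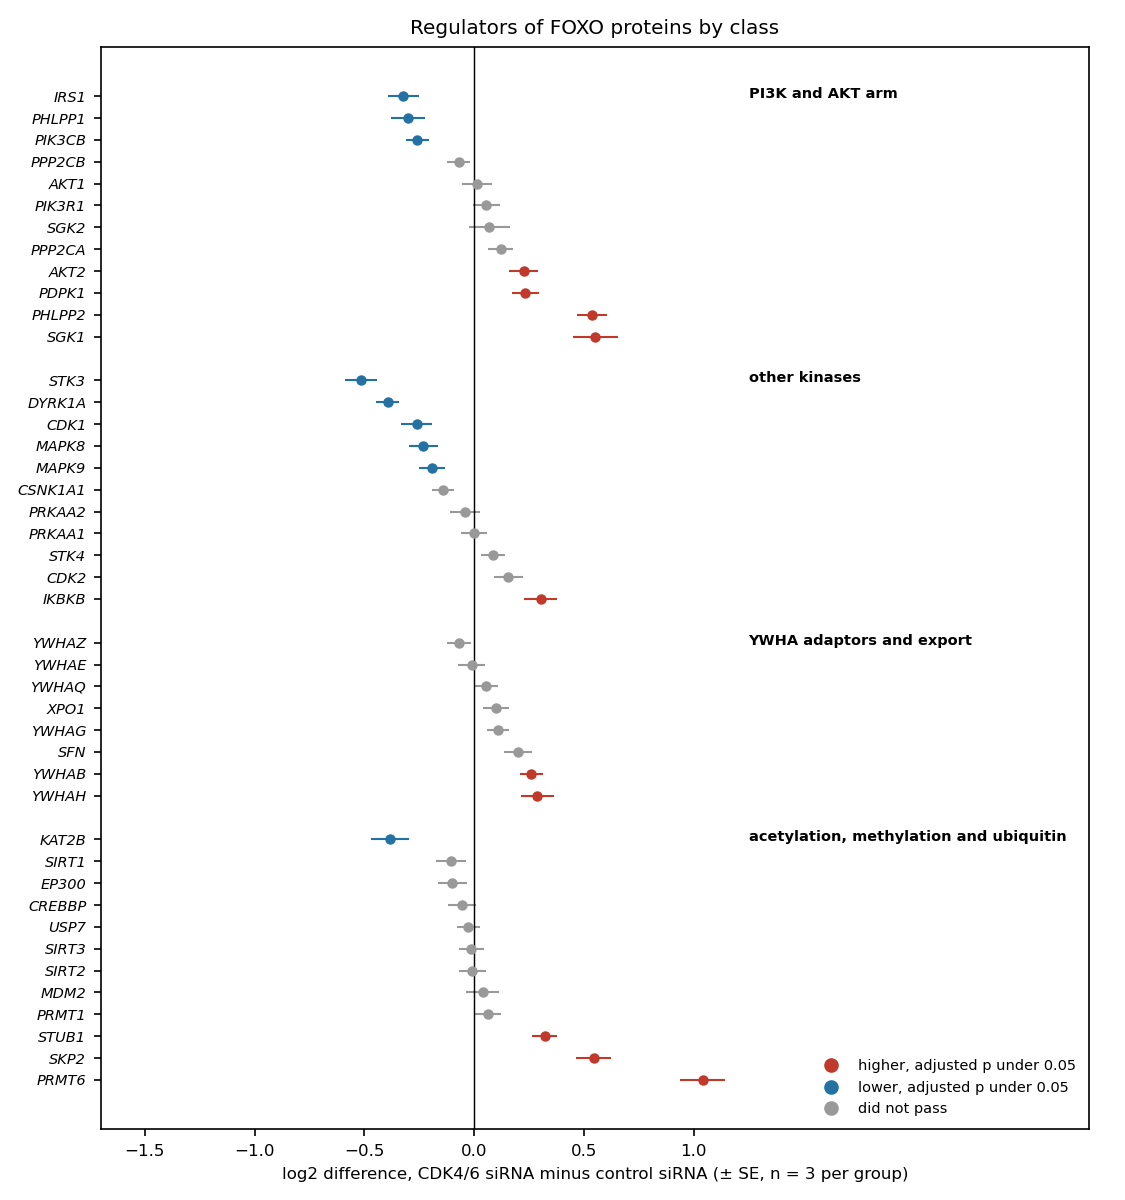
Log2 difference between CDK4/6 siRNA and control siRNA with its SE (n = 3 arrays per group) for 43 regulators of FOXO proteins in 4 classes. Blue genes were lower and red genes higher at an adjusted p under 0.05, and PRMT6 (1.04), SGK1 (0.55) and SKP2 (0.54) lay among the highest.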

How the data were processed

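Biotin-labelled total RNA of 6 HCT116 samples was read on 6 single-channel Affymetrix arrays. The authors deposited log2 values made with RMA, per the submitters' processing notes. RMA corrects background, equalises distributions between arrays and summarises probes per probe set. The RMA version is not given in the sources used here. RMA hides changes in total RNA per cell and damps changes of dim probe sets.

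The platform annotation gave 1 symbol to 41097 of 54675 probe sets. The brightest of a gene's probe sets over the 6 arrays stood for it, which left 19775 genes, and no filter was applied. CDK4/6 siRNA minus control siRNA was fitted by limma 3.58.1 (R 4.3.3; lmFit, eBayes), group being the only term, with Benjamini-Hochberg adjustment over all genes and a threshold of 0.05. Differences of single probe sets come from a second fit over 42892 probe sets. The spike-in mean had an exact permutation test, two-sided (p = 0.1, the smallest possible with 3 arrays per group).

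The 10 genes and all lists were chosen with earlier results of these data known. Lists are described by counts, shares called and medians, to be read against 26.8% and -0.0011 for all genes. Of a list, up to 4 called genes with the smallest adjusted p were named. All relatives of the 10 genes, all genes FOXO proteins repress, and the 5 genes nearest to the one with the largest difference were named too. FKBP5, PHLPP1 and STK4 lie outside this rule and were named after their values were seen, so their alternatives were not run. A few further probe sets and the E-box were picked after their values were seen. Listed genes without a probe set of their own symbol alone were not analysed here.

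Promoters were those of RefSeq, assembly GRCh38.p14. The fit was tested on simulated data. Tried besides were a replicate block, scaling to the hybridisation spike-ins, median centring, quantile normalisation, the mean of all probe sets, plain-name probe sets (without a suffix for shared probes), leaving out the dimmest 30% of genes, trend and robust options, a threshold of 0.01 and leaving out each array. The number of arrays limits the precision.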

Additional observations from a re-analysis of the deposited data

How the results depend on the processing

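At a threshold of 0.01 limma called 3326 genes in place of 5307, 12 other FOXO targets in place of 19 and 10 FOXO regulators in place of 19. With 1 array left out these counts ran from 4225 to 4726, from 12 to 15 and from 12 to 17, and the spike-in difference from -0.12 to -0.077. The same replicate numbers did not pair the arrays (correlations of deviations between same-numbered arrays of -0.12 to -0.0066), and with the replicate block the counts were 4738, 16 and 17. Under the remaining alternatives the 3 counts stayed within 1.5 times of the values reported. Of 58 named genes outside the 10, 31 kept their direction and their side of the threshold under every alternative run. Of called values, and of the 10 genes, these turned sign: TSC22D3 (0.011) on plain-name probe sets, TSC22D2 with probe-set averages (0.011) and on plain names (0.27), BCL2L11 (-0.015) and IRS1 (0.029) with probe-set averages, and NR3C1 (0.014) on plain names. These alternatives read other, dimmer probe sets. Uncalled values near 0 also turned sign, FOXM1 after spike-in scaling (0.060), TSC22D1 (-0.0037) and SESN1 (-0.019) with quantile normalisation, CCND2 with probe-set averages (-0.040), and TSC22D1, SESN1, SESN2 (-0.074) and CCND2 (-0.062) with 1 array left out. Averaging a gene's probe sets shrank the difference by over 1.5 times, with its sign kept, in 16 of 49 called named genes, CITED2 (-0.27) and SEH1L (0.18) among them. It left 14 of the other FOXO targets lower and 0 higher. DEPP1 has no plain-name probe set, so that alternative gave it no value, and FOXO1 none either. Dim probe sets, such as that of FOXO4, limit the size of difference that can be read.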

Other observations

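Of the 10 FOXO factors and targets, 8 were highest in control replicate 3, 2 in control replicate 2 and 0 in control replicate 1, and 24 of the 47 other FOXO targets were highest in control replicate 3. Over all genes control replicate 3 was the highest in 30.7%. In the CDK4/6 siRNA group replicate 3 was the highest for 2 of the 10 genes and for 15 of the 47, against 32.0% of all genes. This was looked for after the values were seen, no test was made, and without control replicate 3 the difference was -0.36 for FOXO3, -0.62 for BCL6, -0.76 for KLHL24 and -0.083 for SESN3.

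In promoters of the 37 other FOXO targets with an entry, the forkhead core was found in 4, against 3.76% of measured genes with a promoter. Of these 4, MXI1 was lower, BCL2L11 was higher, and SELENOP and TXNIP did not pass limma's threshold. SELENOP gave -0.12 and TXNIP -0.16.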
